A study of Arabidopsis thaliana with 12 samples.

Results

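The WRKY transcription factor family of Arabidopsis thaliana was followed through RNA sequencing of 12 libraries from whole seedlings. Members were taken by name: 70 of the 32833 loci in the deposited tables carry a symbol made of WRKY and a number. Of these, 52 reached at least 1 TPM in at least 3 libraries and were tested with the other genes at that level, 19922 in all. TPM is a transcript level already divided by transcript length and scaled to the same total in every library. The libraries formed 4 groups of 3 biological replicates, raised separately from germination on per the labels. All seedlings were 10 days old, came from long days (16 h of light, 8 h of darkness) and were treated for 3 h. The uvr8 group, a mutant of the UV-B photoreceptor UVR8, stood in white light to which UV-B of 5 µmol per square metre and second was added. The other groups were the wild-type accession Col-0. It stood under the same UV-B, received abscisic acid (ABA, the drought and dormancy hormone) at 50 µM without UV-B, or had white light with neither. The sample titles mark the white-light group and both UV-B groups as mock. The labels name no uvr8 allele. uvr8 seedlings without UV-B were not analysed here, so a difference between the genotypes under UV-B cannot be told apart from one that was present without UV-B.

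WRKY proteins are plant transcription factors named after a short run of amino acids in their DNA-binding domain. They bind W boxes, short DNA elements with a TTGAC core, in many genes of defence, senescence and stress, and often in the promoters of other WRKY genes. They are sorted by the number and type of their domains into group I, with a pair of WRKY domains, groups IIa to IIe, and group III, with a different zinc finger. In leaves and seedlings many are induced by pathogen elicitors through MAP kinase cascades, several respond to salicylic acid, and others act in ABA signalling, phosphate uptake or leaf ageing. The assignment of members to these groups is the usual classification of the family, which was not checked on protein sequence here.

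The 300 bases before the annotated start of each gene were read from the TAIR10.1 assembly, and W boxes were searched as TTGACC or TTGACT on both strands (as GGTCAA or AGTCAA when on the other strand). At least 1 W box was found for 21 of the 52 members (40.4%) and for 32.3% of all 27443 protein-coding genes of the 5 chromosomes. At least 2 were found for 9 members (17.3%) and 7.9% of all genes, and at least 3 for WRKY33 and WRKY30 among the members (3.8%) and 1.6% of all genes. The upstream sequences of 5 members are printed because each stands for a pattern of expression described below and holds a W box. WRKY33 and WRKY62 were higher in uvr8, WRKY30 was lower in uvr8 and higher with UV-B, WRKY29 fell with ABA, and WRKY75 had the highest fold difference of the family. Sequences run 5′ to 3′ on the strand of the gene, and capitals mark the W boxes.
WRKY33 (chr2:16107935-16108234, plus strand): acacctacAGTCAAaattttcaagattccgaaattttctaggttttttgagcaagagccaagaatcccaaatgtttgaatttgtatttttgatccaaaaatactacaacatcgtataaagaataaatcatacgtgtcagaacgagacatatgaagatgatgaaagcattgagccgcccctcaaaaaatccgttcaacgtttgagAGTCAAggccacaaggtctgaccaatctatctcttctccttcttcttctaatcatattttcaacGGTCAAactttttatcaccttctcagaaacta
WRKY62 (chr5:352096-352395, minus strand): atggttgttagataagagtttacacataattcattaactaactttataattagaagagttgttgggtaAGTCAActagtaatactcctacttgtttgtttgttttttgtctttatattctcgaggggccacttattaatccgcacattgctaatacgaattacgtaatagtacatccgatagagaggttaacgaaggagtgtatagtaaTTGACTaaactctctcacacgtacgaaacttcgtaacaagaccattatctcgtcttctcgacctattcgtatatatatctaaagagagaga
WRKY30 (chr5:8154711-8155010, minus strand): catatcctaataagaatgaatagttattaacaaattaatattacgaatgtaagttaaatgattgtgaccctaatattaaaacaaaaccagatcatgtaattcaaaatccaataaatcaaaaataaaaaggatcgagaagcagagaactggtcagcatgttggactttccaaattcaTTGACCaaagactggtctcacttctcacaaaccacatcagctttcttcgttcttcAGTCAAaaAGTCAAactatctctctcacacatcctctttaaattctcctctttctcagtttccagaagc
WRKY29 (chr4:12291332-12291631, plus strand): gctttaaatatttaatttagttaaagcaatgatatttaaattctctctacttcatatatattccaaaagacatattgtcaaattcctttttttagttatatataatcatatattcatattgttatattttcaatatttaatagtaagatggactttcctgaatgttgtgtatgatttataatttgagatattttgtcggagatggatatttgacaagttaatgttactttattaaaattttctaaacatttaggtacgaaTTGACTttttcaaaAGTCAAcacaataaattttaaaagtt
WRKY75 (chr5:4151202-4151501, minus strand): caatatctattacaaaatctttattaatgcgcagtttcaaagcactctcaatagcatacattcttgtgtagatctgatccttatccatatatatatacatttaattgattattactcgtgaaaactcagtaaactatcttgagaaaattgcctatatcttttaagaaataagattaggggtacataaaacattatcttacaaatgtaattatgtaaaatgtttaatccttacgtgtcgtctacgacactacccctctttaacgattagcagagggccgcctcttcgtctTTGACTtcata
In WRKY33 the W boxes began 292, 96 and 32 bases before the gene start, and in WRKY30 124, 69 and 61 bases before it. WRKY62 held its W boxes at 232 and 91 bases, WRKY29 at 40 and 26 bases, and WRKY75 had 1 at 11 bases. Of the 29 members that were higher in uvr8 under UV-B, 14 held a W box (48.3%), against 6 of the 21 members with no call in that comparison (28.6%). Without WRKY9 and WRKY63 it was 13 of 27 (48.1%). At least 2 W boxes were less frequent in the higher members (13.8%) than in those with no call (19%). With UV-B in Col-0, 31.2% of the members that fell held a W box, against 45.5% of those with no call. These shares were not tested. The letters searched were not in this window for WRKY40, WRKY18, WRKY60, WRKY70, WRKY38, WRKY63 or WRKY44.

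The labels were checked on UVR8 itself (AT5G63860), which had 20.78, 23.61 and 21.09 TPM in uvr8, against 66.88, 73.77 and 71.07 TPM in Col-0 under UV-B. The mutant was thus below every wild-type library, with transcript still present (log2 change of TPM + 1 of −1.65 ± 0.07, SE, limma adjusted p = 5.22e-09). Between 18557 and 19214 genes reached 1 TPM per library, and the number of reads behind the values is unknown. All 4 mesophyll markers, 4 of 5 root markers and all 4 guard cell markers were above 0 in some library. Of the root markers EXPA7 was at 0 in every library, CASP1 did not exceed 0.81 TPM and PHT1;1 did not exceed 3.69 TPM. The 4 seed storage markers were also above 0 in some library but summed to at most 6.18 TPM. Being above 0 therefore does not by itself bear out the tissue label. Measured on whole seedlings, fewer cells of a type and less RNA per cell cannot be told apart in any value below.

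Levels differed widely within the family. Of the 52 members, 6 had a median over libraries of at least 50 TPM, 21 lay between 10 and 50 TPM, 16 between 2 and 10 TPM and 9 below 2 TPM, and 39 reached 1 TPM in all 12 libraries. WRKY9, WRKY42 and WRKY63 were just inside the limit of 3 libraries. WRKY9 and WRKY63 reached it through the 3 uvr8 libraries alone, so their calls in comparisons with uvr8 are descriptions. In comparisons among the Col-0 groups they were below 1 TPM in every library, and nothing is read from their calls there. The 18 members under it never exceeded 1.4 TPM, the value of WRKY35 in its highest library. WRKY12, WRKY35, WRKY36 and WRKY71 reached 1 TPM in 1 or 2 libraries. WRKY34 and WRKY68 were listed at 0 throughout, and the other 12 under the limit (WRKY10, WRKY24, WRKY41, WRKY43, WRKY55, WRKY56, WRKY59, WRKY61, WRKY64, WRKY66, WRKY67 and WRKY74) stayed below 1 TPM. RRS1 and RRS1B, immune receptors that end in a WRKY domain and that the annotation also calls WRKY52 and WRKY16, go by other names in the tables and were not counted.

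The summed level of the 70 loci lay between 1326.4 and 1389.8 TPM in uvr8 under UV-B. In Col-0 it lay between 846.6 and 1054.4 TPM under UV-B, between 856.1 and 1122.8 TPM with ABA and between 950.4 and 1159 TPM in white light. On TPM as deposited, the 3 uvr8 libraries were thus above all 9 Col-0 libraries, and the Col-0 groups overlapped. The TMM-style scaling used below divides uvr8 libraries by 1.051 to 1.14, ABA libraries by 0.833 to 0.922 and the others by 0.903 to 1.091. It narrows the distance between uvr8 and ABA. Sums, medians and group means in this paragraph were not recalculated after it. The median member was also highest in uvr8, with 15.13 to 16.19 TPM in uvr8, 8.34 to 10.02 TPM in Col-0 under UV-B, 8.4 to 12.38 TPM with ABA and 8.78 to 12.02 TPM in white light. The highest of the 4 group means was that of uvr8 for 24 of the 52 members (46.2%, against 35% of all genes tested). WRKY9 and WRKY63, which reached the level tested through uvr8 alone, are among the 24, and nothing is read from their place there. The lowest mean was that of uvr8 for 1 member (1.9%, against 6.0%). Col-0 under UV-B had the lowest mean for 21 members (40.4%, against 35.7% of all genes) and Col-0 with ABA for 22 (42.3%, against 49%). Replicates differed least in uvr8: among the 27 members with a median of at least 10 TPM, the median coefficient of variation was 6.3% in uvr8, 10.0% in Col-0 under UV-B, 15.3% with ABA and 10.3% in white light.

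Under UV-B, 29 of the 52 members were higher in uvr8 than in Col-0 and 2 were lower, at an adjusted p under 0.05. That is 55.8% and 3.85% of the members, where 32.8% of all genes tested were higher and 11.1% lower. Without WRKY9 and WRKY63, 27 of 50 members were higher. At least 2-fold differences were found for 8 members upward (7 without WRKY9 and WRKY63) and 1 downward, against 4.04% and 3.51% of all genes. The median member was 0.46 higher on the log2 scale and the median gene 0.19 higher. When libraries were scaled so that the median gene differed by 0 (TMM-style scaling), 22 members were higher (42.3%) and 5 lower (9.62%), against 18.1% and 19.3% of all genes. Group III led with 6 of 8 members higher, 1 lower and a median log2 difference of 1.03 (5 higher and 1 lower after scaling). Without WRKY63 it had 5 of 7 higher and a median of 0.98. Higher members also made up 8 of 12 in group I, 2 of 3 in IIa, 4 of 6 in IIb (3 of 5 without WRKY9), 4 of 11 in IIc, 3 of 6 in IId and 2 of 6 in IIe, and the other lower member was in group I. After scaling, 4 were higher and 2 lower in group I and 2 higher and 1 lower in IIa.

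**Figure D1:**
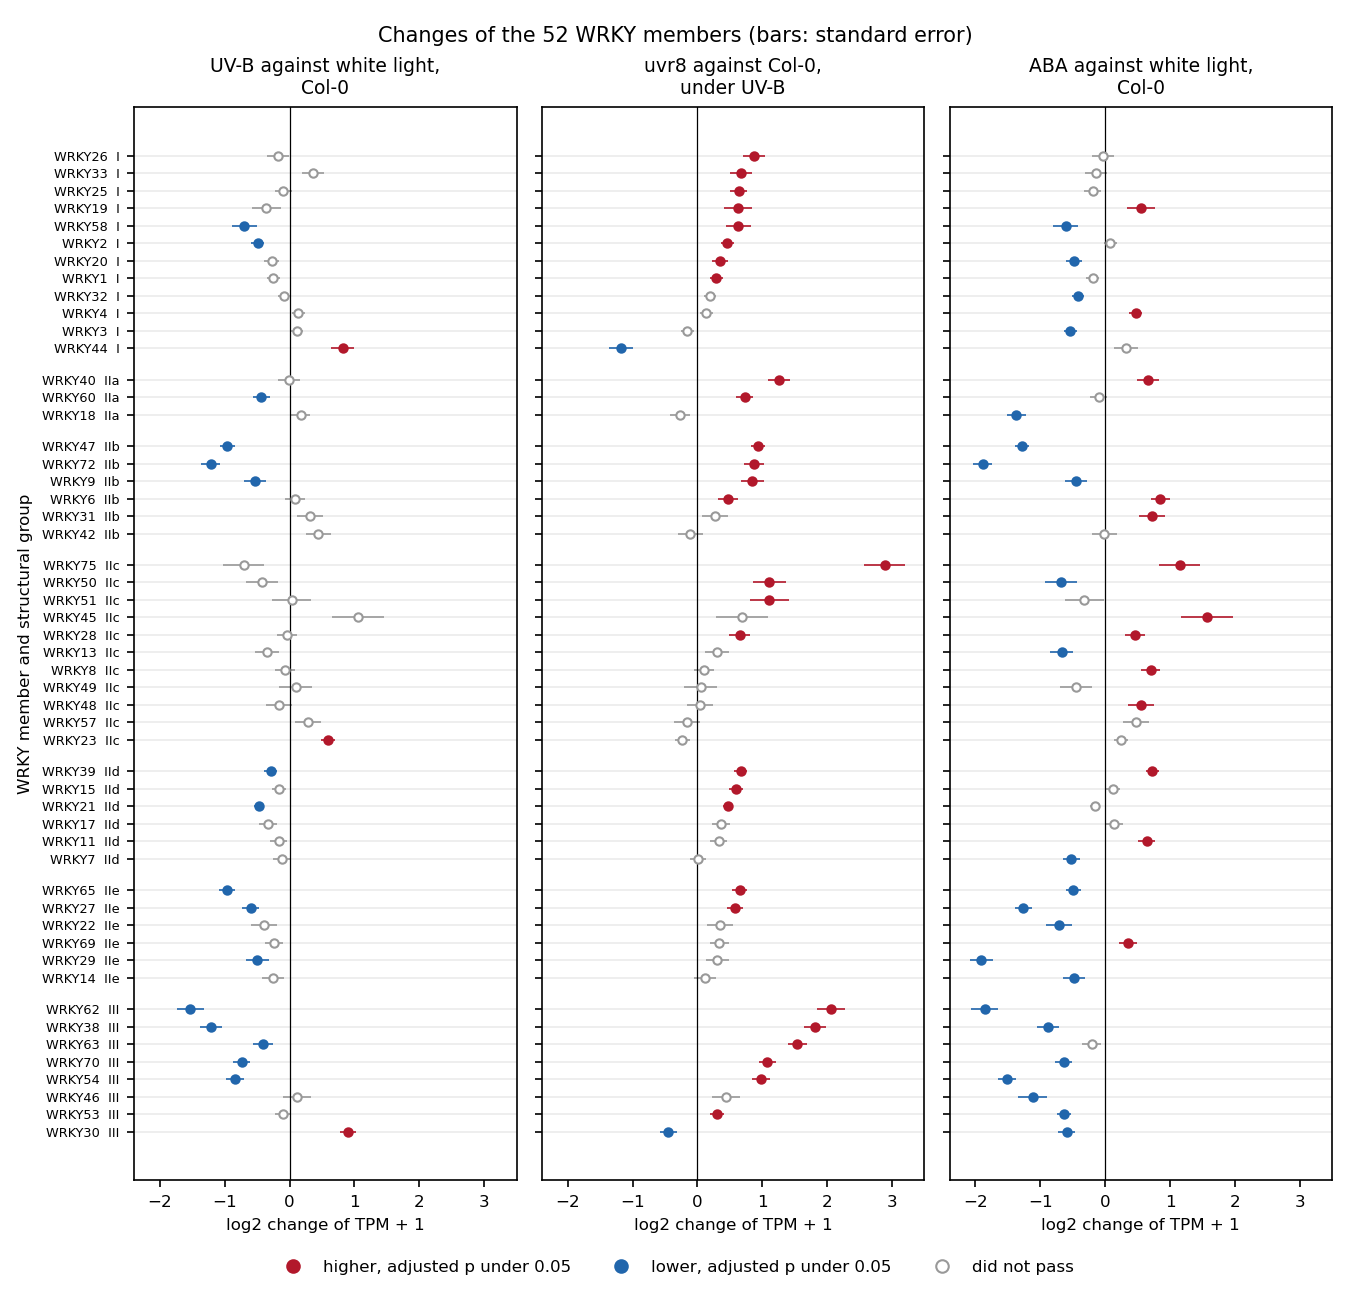
Log2 change of TPM + 1 of each of the 52 tested WRKY members in 3 comparisons, with standard errors, arranged by structural group (rows) and, within a group, by the difference between uvr8 and Col-0. Filled points passed an adjusted p of 0.05. In the middle panel 29 filled points lie to the right and 2 to the left, while the outer panels hold more filled points on the left (16 with UV-B, 23 with ABA). Without WRKY9 and WRKY63, tested through uvr8 alone, 27 lie to the right in the middle panel. In the outer panels 14 (UV-B) and 22 (ABA) then lie to the left.

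WRKY75 (AT5G13080, chr5:4149738-4151201), a group IIc activator of leaf ageing that is also known for its part in phosphate starvation, differed most. It had 13.51, 17.45 and 19 TPM in uvr8, against 1.51, 0.98 and 1.64 TPM in Col-0 under UV-B. With ABA it had 4.19, 11.31 and 9.01 TPM, against 1.49, 4.36 and 3.34 TPM in white light. Every uvr8 library was above every Col-0 library, whereas the ABA and white-light libraries overlapped at about 4 TPM. The difference from Col-0 under UV-B was 2.89 ± 0.32 (adjusted p = 2.4e-05).

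WRKY62 and WRKY38, closely related group III members described as negative regulators of basal defence, followed. WRKY62 (AT5G01900, chr5:350925-352095) had 7.51, 8.45 and 5.3 TPM in uvr8, against 1.21, 0.72 and 0.82 TPM in Col-0 under UV-B. In the groups without UV-B it had 0.8, 0.25 and 0.55 TPM with ABA, against 3.49, 6.02 and 4.27 TPM in white light. WRKY62 was therefore low in 2 groups, Col-0 under UV-B and Col-0 with ABA, while uvr8 overlapped white light. WRKY38 (AT5G22570, chr5:7495455-7496990) had 4.07, 6.23 and 5.19 TPM in uvr8, against 0.8, 0.47 and 0.97 TPM in Col-0 under UV-B. It had 0.95, 1.31 and 1.29 TPM with ABA, against 2.58, 3.25 and 3.22 TPM in white light. Its groups under UV-B did not overlap, and neither did the ABA and white-light groups. The differences between uvr8 and Col-0 were 2.06 ± 0.21 for WRKY62 (adjusted p = 1.34e-05) and 1.81 ± 0.17 for WRKY38 (adjusted p = 6.05e-06).

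WRKY63, a group III member also known as ABO3 and described in ABA and drought responses, was low in all Col-0 libraries. It lies on chromosome 1 (AT1G66600, chr1:24848320-24849543) and had 3.13, 2.63 and 3.58 TPM in uvr8, against 0.36, 0.5 and 0.37 TPM in Col-0 under UV-B. Levels were 0.51, 0.55 and 0.81 TPM with ABA, against 0.77, 0.89 and 0.97 TPM in white light. Only uvr8 libraries reached 1 TPM, so that WRKY63 entered the test through this group, and no support is read from its call (1.54 ± 0.15, adjusted p = 8.28e-06). Its neighbours WRKY64 and WRKY67, which follow each other 3857 bp apart on that chromosome and lie 13518 bp from it with 3 genes between, did not exceed 0.54 TPM.

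WRKY70 and WRKY54, a related pair of group III that acts in salicylic acid signalling and restrains leaf ageing, were abundant members of this set. WRKY70 (AT3G56400, chr3:20908711-20910623) had 160.86, 167.53 and 157.55 TPM in uvr8, against 85.73, 66.73 and 76.35 TPM in Col-0 under UV-B. It had 73.63, 77.18 and 95.33 TPM with ABA, against 106.32, 139.62 and 139.3 TPM in white light. uvr8 held the highest values of the family, and the other pair of groups did not overlap either. WRKY70 was 1.08 ± 0.13 higher in uvr8 (adjusted p = 3.66e-05). WRKY54 averaged 31.54 ± 1.33 TPM in uvr8 and 15.52 ± 1.74 TPM in Col-0 under UV-B (SD, n = 3 each), a difference of 0.98 ± 0.14 (limma adjusted p = 0.000137).

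WRKY53 and WRKY46, also of group III, had smaller differences. WRKY53 (AT4G23810, chr4:12392370-12393982), a promoter of leaf ageing, had 38.99, 35.42 and 34.69 TPM in uvr8, against 30.71, 26.13 and 31.51 TPM in Col-0 under UV-B. The libraries did not overlap, but the difference of 0.30 ± 0.11 passed narrowly (adjusted p = 0.05) and failed in 14 of 18 alternative analyses. Of its 1514 exon bases, 311 overlap a gene on the other strand, AT4G23800, and the sources used here do not say whether reads were counted by strand. WRKY46 (AT2G46400, chr2:19043411-19044955), known from osmotic stress and salicylic acid responses, had 22.09, 23.41 and 19.02 TPM in uvr8, against 19.54, 12.19 and 15.57 TPM in Col-0 under UV-B. These overlapped, and the difference did not pass (0.44 ± 0.22, adjusted p = 0.118).

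**Figure D2:**
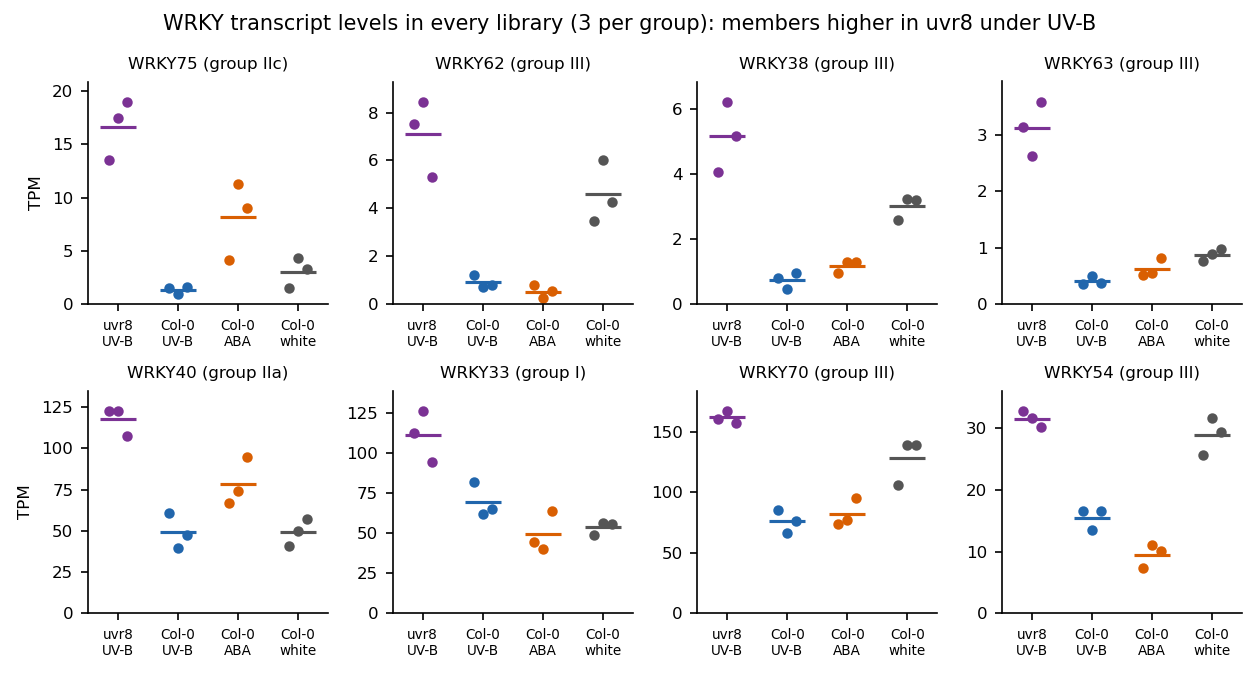
TPM in each of the 12 libraries (points) and group means (lines) for 8 WRKY members, with a linear axis from 0 in every panel. The members were chosen as higher in uvr8 under UV-B, so it follows from the choice that uvr8 lies above Col-0 under UV-B in every panel. WRKY63 entered the test through uvr8 alone. The 3 uvr8 libraries also lie above all white-light libraries in every panel but those of WRKY62 and WRKY54.

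The 3 members of group IIa, which act together in restraining defence and in ABA signalling, did not move together. WRKY40 (AT1G80840, chr1:30383561-30385499) had 122.86, 122.56 and 107.83 TPM in uvr8, against 60.77, 39.85 and 47.5 TPM in Col-0 under UV-B. With ABA it had 66.67, 74.33 and 94.63 TPM, against 41.05, 49.66 and 57.36 TPM in white light. uvr8 was highest, ABA stood between, and Col-0 under UV-B overlapped white light. The difference between uvr8 and Col-0 was 1.26 ± 0.17 (adjusted p = 9.3e-05). WRKY40 shares 51 exon bases with an opposite gene and a stretch of 175 bp at 96.0% identity with AT3G32090, so part of its value is uncertain.

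WRKY60 (AT2G25000, chr2:10629662-10631413) had 16.36, 15.8 and 18.61 TPM in uvr8, against 9.81, 9.82 and 9.64 TPM in Col-0 under UV-B. It was higher in uvr8 by 0.73 ± 0.13 (adjusted p = 0.000716), with no overlap. WRKY18 (AT4G31800, chr4:15382777-15385100) ran the other way, with 96.91, 93.78 and 89.84 TPM in uvr8, against 124.13, 103.26 and 113.03 TPM in Col-0 under UV-B. The groups did not overlap, yet the difference of −0.27 ± 0.15 did not pass (adjusted p = 0.157). After TMM-style scaling WRKY18 was called lower in uvr8 (−0.50, adjusted p = 0.00753).

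Group I holds WRKY33, which controls synthesis of the antifungal compound camalexin downstream of the MAP kinases MPK3 and MPK6, and its relatives WRKY25 and WRKY26, described in heat tolerance. WRKY33 (AT2G38470, chr2:16108235-16110766), whose upstream sequence with 3 W boxes is printed above, had 112.76, 126.44 and 94.35 TPM in uvr8, against 82.02, 61.83 and 64.84 TPM in Col-0 under UV-B. It had 44.37, 39.97 and 64.11 TPM with ABA, against 48.68, 56.58 and 55.9 TPM in white light, which overlapped. Under UV-B no library overlapped, and the difference was 0.67 ± 0.17 (adjusted p = 0.00691). WRKY25 averaged 36.73 ± 1.68 TPM in uvr8 and 23.37 ± 3.07 TPM in Col-0, and WRKY26 averaged 17.08 ± 0.17 TPM and 8.93 ± 1.53 TPM in the same order of groups (SD, n = 3 each). Both passed, by 0.64 ± 0.13 (limma adjusted p = 0.00182) and 0.88 ± 0.17 (limma adjusted p = 0.00125). Smaller differences that passed in group I were those of WRKY19 (0.63), WRKY58 (0.63), WRKY2 (0.46), WRKY20 (0.35) and WRKY1 (0.29), all on the log2 scale. Of these, WRKY1, WRKY19, WRKY20 and WRKY58 did not pass after TMM-style scaling.

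Among the remaining groups, WRKY50 and WRKY51 of group IIc, described as repressors of jasmonate responses, were each 1.11 higher in uvr8 on the log2 scale (adjusted p = 0.0037 and 0.0107). WRKY28 of the same group, an activator of salicylic acid synthesis, was 0.65 higher, but did not pass after scaling (0.44, adjusted p = 0.0549). Group IIb gave WRKY47 (0.94), WRKY72 (0.87), WRKY9 (0.85) and WRKY6 (0.47), IId gave WRKY39 (0.67), WRKY15 (0.59) and WRKY21 (0.47), and IIe gave WRKY65 (0.65) and WRKY27 (0.58). WRKY15, a member of the oxidative stress response, averaged 100.07 ± 5.01 TPM in uvr8 and 66.25 ± 5.92 TPM in Col-0 (SD, n = 3 each). Of the 31 members called, only WRKY19 had overlapping ranges.

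WRKY44 and WRKY30 were lower in uvr8. WRKY44 (AT2G37260, chr2:15644811-15647076), also known as TTG2 and required for trichomes and seed coat pigment, had 2.47, 2.04 and 2.54 TPM in uvr8, against 5.56, 6.26 and 8.11 TPM in Col-0 under UV-B. It had 5.33, 3.09 and 4.87 TPM with ABA, against 3.52, 2.91 and 3.42 TPM in white light. Col-0 under UV-B was highest and uvr8 was below every other library of the series (−1.18 ± 0.18 against Col-0 under UV-B, adjusted p = 0.000226). WRKY30 (AT5G24110, chr5:8153115-8154710), a group III member described in oxidative stress tolerance, had 3.71, 3.11 and 3.84 TPM in uvr8, against 5.44, 5.05 and 5.15 TPM in Col-0 under UV-B. With ABA it had 1.24, 1.12 and 1.31 TPM, against 2.91, 2.08 and 2.09 TPM in white light. The 4 groups of WRKY30 did not overlap, and uvr8 lay below Col-0 by 0.45 on the log2 scale (−0.45 ± 0.13, adjusted p = 0.0147). That call was lost when the uvr8 library of replicate 2 was left out.

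Beside these differences, the summed level of the mesophyll markers was 5840.61 to 6903.21 TPM in uvr8, against 7597.99 to 8438.0 TPM in Col-0 under UV-B, and 2 of the 4 markers were lower (4 after scaling, with a median of −0.81). Root markers summed to 252.49 to 279.61 TPM in uvr8, against 211.21 to 266.97 TPM in Col-0, and BGLU23 makes up most of that sum. Of the 3 root markers tested 2 were higher and 0 lower, with a median of 0.44 (1 higher and 0.22 after scaling). Guard cell markers summed to 54.89 to 61.18 TPM, against 49.24 to 57.72 TPM. The part of these markers in the WRKY differences was not tested.

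The effect of UV-B in the wild type was read from Col-0 with UV-B against the white-light libraries. Of the 52 members, 3 rose with UV-B (5.77%) and 16 fell (30.8%), where 12.3% of all genes tested rose and 27.8% fell. Without WRKY9 and WRKY63, which stayed below 1 TPM in both groups, 3 of 50 rose and 14 fell. None of the members that rose and 3 of those that fell changed by at least 2-fold, where 3.96% of all genes rose and 2.62% fell by as much. The median member changed by −0.21 and the median gene by −0.15. After TMM-style scaling 8 members rose and 11 fell (15.4% and 21.2%, against 18.8% and 17.4% of all genes). The comparison shares its UV-B libraries with the one of uvr8 against Col-0, so a low value in those libraries enters both.

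WRKY30, WRKY44 and WRKY23 rose. WRKY30, with a mean of 5.21 ± 0.2 TPM under UV-B and 2.36 ± 0.48 TPM in white light, rose by 0.90 ± 0.13 (SE, limma adjusted p = 0.000202), and WRKY44 rose by 0.82 ± 0.18 (limma adjusted p = 0.00293). WRKY23 (AT2G47260, chr2:19404802-19407098), a group IIc member that acts in auxin-dependent root patterning, had 5.83, 4.87 and 5.71 TPM under UV-B, against 2.78, 3.63 and 3.51 TPM in white light. All UV-B libraries were above all white-light libraries (0.59 ± 0.11, adjusted p = 0.00155). WRKY23 had 4.6, 4.47 and 4.46 TPM in uvr8 under UV-B, a difference of −0.23 from Col-0 that did not pass. After TMM-style scaling it was called lower in uvr8 (−0.42, adjusted p = 0.00519). With ABA it had 4.05, 3.86 and 4.27 TPM, all above white light, and that change was called after scaling only.

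The members that fell were led by WRKY62 (−1.53 ± 0.21, adjusted p = 0.000145), WRKY72 (−1.22 ± 0.15, adjusted p = 4.88e-05) and WRKY38 (−1.21 ± 0.17, adjusted p = 0.000152). WRKY72 (AT5G15130, chr5:4904290-4907094), a group IIb member described in basal defence, had 2.85, 2.45 and 2.3 TPM in Col-0 under UV-B, against 5.55, 8.34 and 8.01 TPM in white light. It had 6.02, 5.43 and 4.9 TPM in uvr8 under UV-B and 1.12, 1.3 and 1.2 TPM in Col-0 with ABA. Col-0 under UV-B was thus low, uvr8 partly overlapped white light, and ABA was lowest. WRKY70 fell by 0.74 and WRKY54 by 0.85 on the log2 scale (limma adjusted p = 0.000695 and 0.000416). In group III 5 of 8 members fell (WRKY62, WRKY38, WRKY54, WRKY70 and WRKY63) and 1 rose (WRKY30), with a median of −0.58 (−0.46 after scaling, when 4 fell). Without WRKY63, 4 of 7 fell, with a median of −0.74. The other members that fell were WRKY65 (−0.97), WRKY47 (−0.96), WRKY58 (−0.70), WRKY27 (−0.60), WRKY9 (−0.53), WRKY29 (−0.50), WRKY2 (−0.49), WRKY21 (−0.47), WRKY60 (−0.44) and WRKY39 (−0.29). WRKY9, WRKY29, WRKY39, WRKY60 and WRKY63 did not pass after scaling, and each also failed when single libraries were left out. WRKY33 and WRKY40 gave 0.36 ± 0.17 and −0.01 ± 0.17 and did not pass. For WRKY33 the scaled value of 0.53 did (adjusted p = 0.0114). Mesophyll markers summed to 7597.99 to 8438.0 TPM under UV-B, against 5654.22 to 6720.2 TPM in white light. Of the 4 mesophyll markers 3 were higher (4 after scaling). Root markers summed to 211.21 to 266.97 TPM, against 300.44 to 332.27 TPM, and 2 of the 3 tested were lower (1 after scaling). Guard cell markers summed to 49.24 to 57.72 TPM, against 50.29 to 55.1 TPM. The part of these markers was not tested.

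The mutant under UV-B was also set beside the wild type in white light, 2 groups that differ in genotype and in UV-B at once. In it 8 of 52 members were higher (15.4%) and 0 lower, where 3.83% of all genes were higher and 1.28% lower. At an unadjusted p under 0.05, limma gave 22 members higher and 2 lower, where 13.2% of all genes were higher and 5.75% lower. WRKY63 is among the 8 through the uvr8 libraries alone, and 7 of 50 were higher without WRKY9 and WRKY63. Differences of at least 2-fold were found for 5 members, 4 of them without WRKY63 (0.878% of all genes), and the median member was 0.18 higher and the median gene 0.04 higher. WRKY75 led with 2.18 ± 0.32 (adjusted p = 0.00299), followed by WRKY45 (1.75 ± 0.40, adjusted p = 0.027), WRKY40 (1.25 ± 0.17, adjusted p = 0.00145), WRKY63 (1.13 ± 0.15, adjusted p = 0.00139) and WRKY33 (1.03 ± 0.17, adjusted p = 0.00506). WRKY26 (0.69), WRKY25 (0.54) and WRKY15 (0.42) passed as well, but each failed in at least 7 of 18 alternative analyses. WRKY45 failed in 5 of 18, among them the omission of each uvr8 library, and its value was 1.17 without white-light replicate 1. WRKY62, WRKY38, WRKY70 and WRKY54, which were all called higher than Col-0 under UV-B, did not pass here (0.54, 0.61, 0.34 and 0.13).

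**Figure D3:**
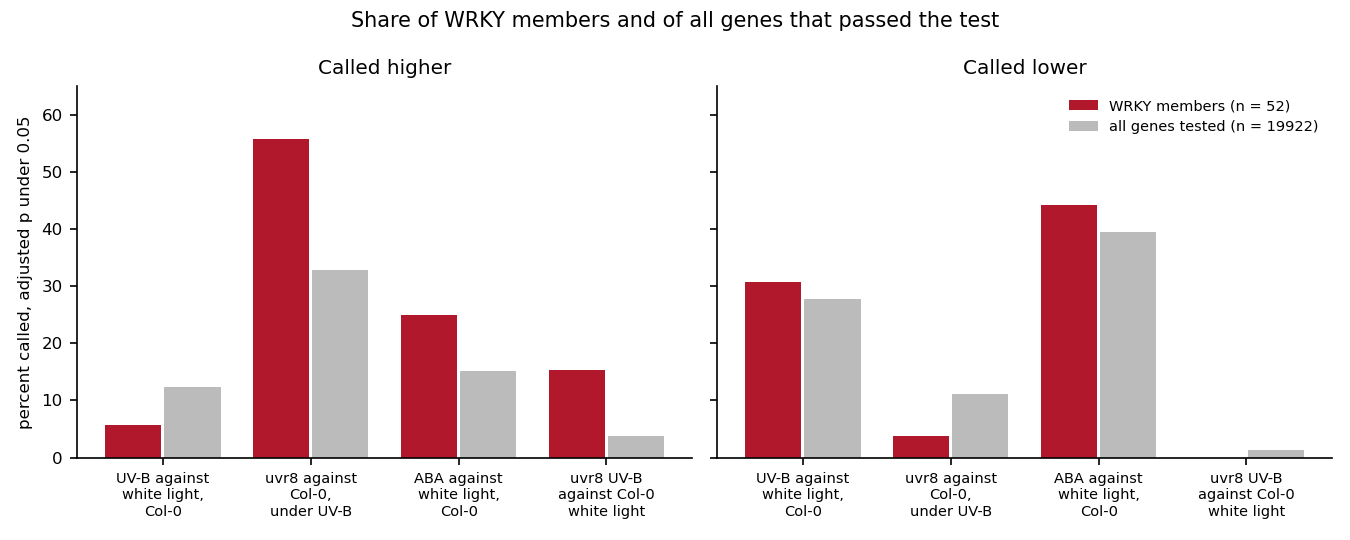
Percent of the 52 WRKY members and of all 19922 genes tested that were called higher (left) or lower (right) at an adjusted p of 0.05, in 4 comparisons. The members exceed all genes most for uvr8 against Col-0 under UV-B, at 55.8% against 32.8% higher, and lie near all genes for the share lower with UV-B (30.8% against 27.8%) and with ABA (44.2% against 39.4%).

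ABA for 3 h in white light changed 36 members: 13 rose (25%) and 23 fell (44.2%), where 15.2% of all genes rose and 39.4% fell. Without WRKY9 and WRKY63, which stayed below 1 TPM in both groups, 13 of 50 rose and 22 fell. At least 2-fold changes were found for 2 members upward and 8 downward, against 5.89% and 5.38% of all genes. The median member changed by −0.2 and the median gene by −0.24. After TMM-style scaling, which brought the median gene to −0.01, 19 members rose and 15 fell (36.5% and 28.8%, against 24.1% and 21.3% of all genes). Whether more members fell or rose therefore depended on the scaling, and the members below kept their call under it unless it is stated otherwise.

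Members of group III and IIe fell. In group III 7 of 8 fell, with a median of −0.76 (7 and −0.57 after scaling), and WRKY63 did not pass. In IIe 5 of 6 fell and WRKY69 rose (0.35), but after scaling 2 fell. WRKY29 (AT4G23550, chr4:12291632-12293367), a group IIe member placed downstream of the flagellin receptor and its MAP kinases, had 8.85, 12.89 and 16.5 TPM with ABA, against 44.5, 48.82 and 55.45 TPM in white light. Its levels under UV-B were 43.16, 44.36 and 41.81 TPM in uvr8, against 37.39, 28.28 and 38.88 TPM in Col-0. The ABA libraries stood far below all others (−1.91 ± 0.18, adjusted p = 3.92e-06). Of its 1393 exon bases, 251 overlap the opposite gene AT4G23560. WRKY22, which acts beside WRKY29 in the same pathway, fell by 0.71 on the log2 scale (adjusted p = 0.00901) but did not pass after scaling (adjusted p = 0.106).

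WRKY72 fell by 1.89 on the log2 scale (SE 0.15, adjusted p = 7.79e-07) and WRKY62 by 1.86 (SE 0.21, adjusted p = 1.91e-05). WRKY54 (−1.52 ± 0.14, adjusted p = 2.66e-06), WRKY47 (−1.28 ± 0.11, adjusted p = 1.33e-06) and WRKY27 (−1.26 ± 0.13, adjusted p = 7.21e-06) also fell by more than 2-fold. WRKY46 had 5.27, 4.66 and 8.8 TPM with ABA, against 11.39, 16.56 and 15.38 TPM in white light. No library overlapped (−1.12 ± 0.22, adjusted p = 0.000997). WRKY53 had 17.63, 19.25 and 23.53 TPM with ABA, against 29.12, 31.83 and 34.5 TPM in white light, also without overlap (−0.64 ± 0.11, adjusted p = 0.000524). WRKY70 fell by 0.64, WRKY38 by 0.88 and WRKY30 by 0.59 on the log2 scale.

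The group IIa members parted here too. WRKY18 had 36.14, 32.2 and 48.5 TPM with ABA, against 82.29, 111.23 and 111.35 TPM in white light. All ABA libraries were lower (−1.37 ± 0.15, adjusted p = 1.17e-05). WRKY40, with the library values given above, rose by 0.66 ± 0.17 (adjusted p = 0.00567). WRKY60 had 10.48, 14.04 and 13.62 TPM with ABA, against 11.97, 12.8 and 16.23 TPM in white light, which overlapped, and it did not pass.

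Among the 13 members that rose, group IIc gave 5 (WRKY45, WRKY75, WRKY8, WRKY48 and WRKY28), IIb, IId and I gave 2 each, and IIa and IIe gave 1 each. WRKY45 (AT3G01970, chr3:325952-327412), an activator of a phosphate transporter gene, had 7.14, 14.39 and 13.35 TPM with ABA, against 0.82, 5.19 and 5.04 TPM in white light. It had 10.67, 12.63 and 15.4 TPM in uvr8, against 6.9, 8.55 and 7.15 TPM in Col-0 under UV-B. The 3 white-light libraries were the lowest of the series, and among them replicate 1 stood well below the other two. The rise with ABA was 1.57 ± 0.40 (adjusted p = 0.00562), and the value with UV-B in Col-0 was 1.06 ± 0.40 (adjusted p = 0.0528). Without white-light replicate 1 these were 0.99 (adjusted p = 0.00657) and 0.48 (adjusted p = 0.157). The UV-B value passed in 5 of 18 alternative analyses, TMM-style scaling and the replicate block among them.

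WRKY75 rose by 1.15 ± 0.32 with ABA (adjusted p = 0.00979), although its ranges overlapped. WRKY6 (AT1G62300, chr1:23016569-23019494), a group IIb regulator of phosphate transport and leaf ageing, had 37.25, 46.96 and 57.12 TPM with ABA, against 24.28, 25.98 and 25.45 TPM in white light. Every ABA library was higher (0.85 ± 0.15, adjusted p = 0.00059). Under UV-B WRKY6 had 37.24, 38.75 and 35.89 TPM in uvr8, against 32.57, 21.57 and 27.1 TPM in Col-0. These did not overlap either (0.47 ± 0.15, adjusted p = 0.0273), but the difference did not pass after scaling. WRKY11, a negative regulator of basal resistance in group IId, averaged 121.23 ± 17.7 TPM with ABA and 77.53 ± 11.93 TPM in white light (SD, n = 3 each, 0.64 ± 0.13, limma adjusted p = 0.00147). WRKY39, of the same group and described in heat responses, rose by 0.73 ± 0.10 (limma adjusted p = 0.000107). The other members that rose were WRKY31 (0.73), WRKY8 (0.70), WRKY48 (0.55), WRKY19 (0.55), WRKY4 (0.47), WRKY28 (0.46) and WRKY69 (0.35). Ranges overlapped for WRKY75, WRKY19 and WRKY28. The calls of WRKY19, WRKY28, WRKY48 and WRKY69 were each lost without certain single libraries, and WRKY28 was at 0.27 without ABA replicate 3 (adjusted p = 0.135).

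The remaining members that fell with ABA were WRKY13 (−0.67), WRKY50 (−0.68, ranges overlapping), WRKY58 (−0.61), WRKY3 (−0.54), WRKY7 (−0.52), WRKY65 (−0.49), WRKY14 (−0.48), WRKY20 (−0.48), WRKY9 (−0.45) and WRKY32 (−0.42). After TMM-style scaling WRKY7, WRKY9, WRKY14, WRKY22, WRKY32, WRKY50, WRKY58 and WRKY65 no longer passed, and WRKY2, WRKY15, WRKY17, WRKY23, WRKY44 and WRKY57 were called higher. Beside these changes, guard cell markers summed to 30.77 to 48.29 TPM with ABA, against 50.29 to 55.1 TPM in white light, and 3 of 4 were lower. Mesophyll markers summed to 4813.98 to 5750.27 TPM with ABA, against 5654.22 to 6720.2 TPM, and root markers to 340.87 to 457.47 TPM, against 300.44 to 332.27 TPM. Of the 3 root markers tested BGLU23, which makes up most of that sum, was higher, NRT2.1 and PHT1;1 were lower, and the median was −0.91. Their part in the WRKY changes was not tested.

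**Figure D4:**
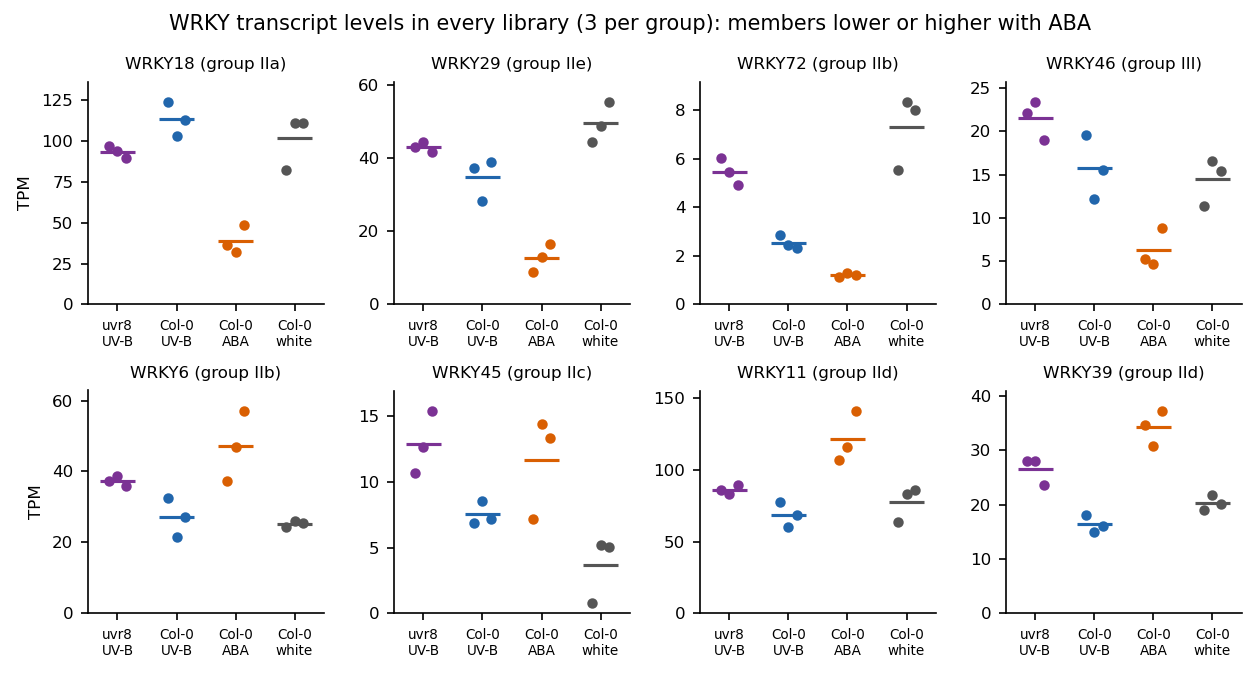
TPM in each of the 12 libraries (points) and group means (lines) for 4 WRKY members that fell with ABA (upper row) and 4 that rose (lower row), on linear axes from 0. In the upper row the 3 ABA libraries are the lowest of the series in every panel, and for WRKY11 (from 107 TPM upward) and WRKY39 they are the highest.

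The genes that act with WRKY factors were read from the same fit, in lists chosen with earlier results of these data known. Of all genes tested, 32.8% were higher and 11.1% lower in uvr8 under UV-B, beside which the counts below stand. The shares of all genes that rose and fell were 12.3% and 27.8% with UV-B in Col-0 and 15.2% and 39.4% with ABA. Where a count below is 0, limma also gave 0 at an unadjusted p under 0.05, with 1 exception that is named. MAP kinases phosphorylate several WRKY proteins during defence, and the list holds MAP kinases and their activators. In uvr8 under UV-B 8 of 10 such genes were higher than in Col-0 and 0 lower, with a median of 0.64 (6 higher after scaling), beside 32.8% of all genes higher and a median of 0.19. MPK3 averaged 77.45 ± 11.29 TPM in uvr8 and 37.99 ± 7.77 TPM in Col-0 (SD, n = 3 each), 1.02 ± 0.14 higher (limma adjusted p = 0.000118). MKK1 averaged 25.47 ± 1.36 TPM and 11.07 ± 0.21 TPM in the same groups, 1.13 ± 0.09 higher (limma adjusted p = 9.55e-07). MPK11 was highest by change (1.21 ± 0.16, adjusted p = 9.48e-05). MEKK1 and MKK5 did not pass. With UV-B in Col-0 0 of the 10 rose and 5 fell (1 and 4 after scaling), and with ABA MKK9 (1.04 ± 0.09) and MPK11 rose while MPK3 (−1.11 ± 0.14), MKK1 and MKK2 fell. After scaling MKK2 was at −0.01 and did not pass (adjusted p = 0.906), MPK6 was called higher, and the counts with ABA were 3 higher and 2 lower.

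VQ proteins are small cofactors that bind WRKY domains. In uvr8 under UV-B 6 of the 9 tested were higher and 0 lower (5 and 0 after scaling), and VQ20 was under the level tested. VQ10 had 12.79, 16.6 and 14.82 TPM in uvr8, against 2.56, 2.78 and 3.49 TPM in Col-0, without overlap (2.00 ± 0.12, adjusted p = 1.41e-07). SIB1 and SIB2, which bind WRKY33, were 1.21 ± 0.15 and 1.24 ± 0.38 higher (adjusted p = 5.67e-05 and 0.0193), and MKS1, which links MPK4 to WRKY33, was 0.71 ± 0.13 higher (adjusted p = 0.0011). With UV-B in Col-0 0 of 9 rose and 3 fell (SIB2, VQ10 and VQ4; 1 and 2 after scaling), and with ABA 0 rose and 2 fell (SIB1 and VQ10; 1 and 1 after scaling).

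Of 15 defence genes for which WRKY binding at the promoter has been described, 13 were higher in uvr8 under UV-B and 0 lower. The median of the 15 was 0.8, and after scaling 12 were higher and 1 lower. Of all genes 32.8% were higher and 11.1% lower, with a median of 0.19. PAD3, the last enzyme of camalexin synthesis and a target of WRKY33, had 62.86, 80.1 and 66.8 TPM in uvr8, against 14.4, 10.84 and 11.79 TPM in Col-0. The groups stood far apart (2.41 ± 0.23, adjusted p = 8.19e-06). CYP71A13 and CYP71A12, earlier enzymes of the same path, were 2.03 ± 0.23 and 1.94 ± 0.19 higher. PR1, a marker of the salicylic acid response, had 45.75, 65.6 and 94.22 TPM in uvr8, against 3.79, 9 and 8.43 TPM in Col-0, a difference of 3.12 ± 0.34 (adjusted p = 1.94e-05). NPR1 (0.06 ± 0.08) and PAD4 (−0.29 ± 0.11) did not pass. PAD4 was lower at an unadjusted p under 0.05 and was called lower after scaling. Set against white light, uvr8 under UV-B was higher for 8 of the 15 and lower for 0. In that comparison 3.83% of all genes were higher and 1.28% lower. With UV-B in Col-0 PAD4 rose (0.51 ± 0.11) while PR2 (−1.35 ± 0.27), CYP71A12, SARD1 and FMO1 fell. After scaling SARD1 (adjusted p = 0.0593) and FMO1 (adjusted p = 0.0973) did not pass and NPR1 was called higher, which gave 2 higher and 2 lower. With ABA ACS2, an ethylene synthesis gene, rose (1.09 ± 0.15), and PAD4 (−1.27 ± 0.11), EDS1, CBP60G, ICS1 and NPR1 fell. CBP60G did not pass after scaling (adjusted p = 0.0904).

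**Figure D5:**
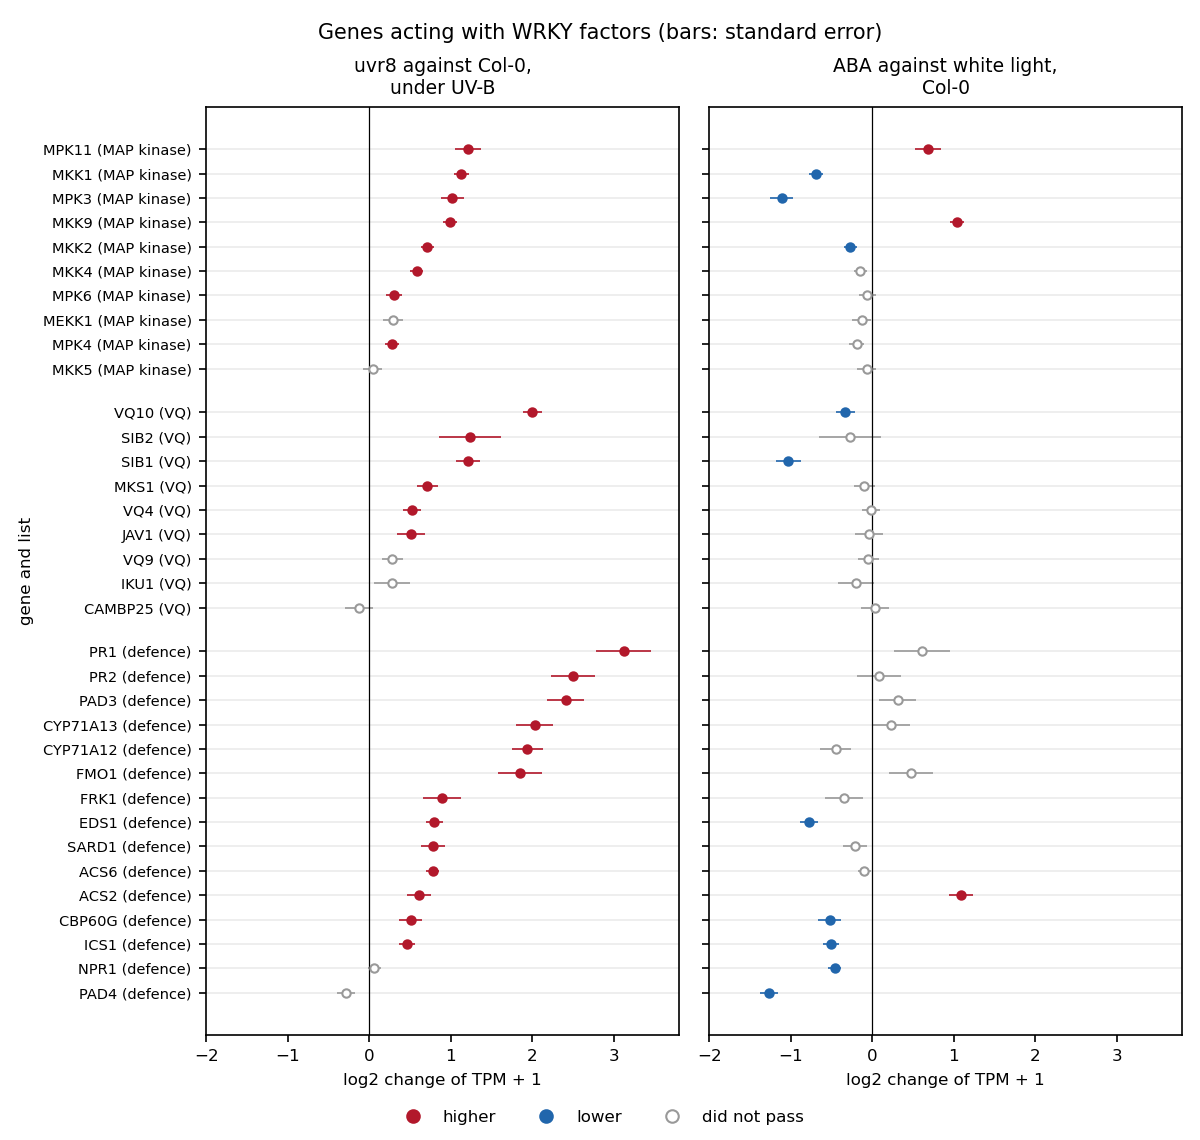
Log2 change of TPM + 1, with standard errors, of genes that act with WRKY factors: MAP kinase cascade, VQ proteins and defence genes with described WRKY binding. Filled points passed an adjusted p of 0.05. In uvr8 against Col-0 under UV-B (left) 27 of 34 genes were higher and 0 lower, led by PR1 at 3.12. Of all genes tested 32.8% were higher and 11.1% lower. With ABA (right) the calls lie on both sides.

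Early elicitor and wound genes were split. In uvr8 under UV-B 7 of 15 were higher and 4 lower (4 and 4 after scaling). MYB51, a regulator of indole glucosinolates, was 1.49 ± 0.16 higher (adjusted p = 2.03e-05), and CYP81F2, an enzyme of the same compounds, 1.27 ± 0.15 higher. PHI-1 was 1.89 lower on the log2 scale (−1.89 ± 0.11, adjusted p = 8.82e-08), and ZAT12, CML38 and ZAT10 were lower too. All 4 rose with UV-B in Col-0, where 5 of the 15 rose (PHI-1 by 1.49 ± 0.11 and ZAT12 by 1.78 ± 0.15) and 3 fell (6 and 2 after scaling). With ABA 5 rose and 7 fell (5 and 5 after scaling), from BAP1 (1.39 ± 0.15) to ERF105 (−2.09 ± 0.23) and CYP81F2 (−2.29 ± 0.15).

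Of 9 ABA genes linked to WRKY40, WRKY18 or WRKY60 in the literature, 7 were tested, since ABI4 was listed at 0 and ABI3 stayed near 0. With ABA 6 rose and 0 fell, with a median of 2.08 (−0.24 for all genes), among them RAB18 (5.34 ± 0.18, adjusted p = 1.08e-09), DREB1A (3.09 ± 0.15), MYB2 (2.49 ± 0.20) and ABI5 (2.08 ± 0.15). GUN5, a chlorophyll synthesis gene also annotated as an ABA-binding protein, did not pass. It is not read as a target of these WRKY factors in any count here. In uvr8 under UV-B 2 were higher (MYB2 and ABI5) and 4 lower, led by DREB2A (−2.66 ± 0.15, adjusted p = 9.78e-08) and GUN5 (−1.83 ± 0.18). ABI5 did not pass after scaling. With UV-B in Col-0 4 rose, led by DREB2A (2.91 ± 0.15), and 2 fell (1 after scaling).

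Senescence-associated genes, several of them downstream of WRKY53 or WRKY75 in ageing leaves, were tested for 9 of 10, because SAG12 was listed at 0 in every library. In uvr8 under UV-B 6 were higher and 0 lower (4 and 1 after scaling). ORE1, a NAC factor that drives leaf ageing, had 15.41, 15.87 and 19.78 TPM in uvr8, against 3.69, 3.35 and 3.11 TPM in Col-0 under UV-B. With ABA it had 43.37, 46.88 and 60.32 TPM, against 8.88, 12.15 and 11.54 TPM in white light. Levels of ORE1 were lowest in Col-0 under UV-B and highest with ABA, with no overlap between groups. The difference was 2.03 ± 0.15 in uvr8 (adjusted p = 6.98e-07) and 2.11 ± 0.15 with ABA (adjusted p = 3.22e-07). With ABA 6 of 9 rose, led by SAG29 (4.14 ± 0.23), SAG13 (2.94 ± 0.22) and NAP (2.69 ± 0.16), and SAG101 fell. SAG29 had 17.31, 13.34 and 20.75 TPM with ABA and at most 0.87 TPM in any other library. It reached the level tested through ABA alone, so no support is read from its call or its place in the count. With UV-B in Col-0 SAG13 (2.06 ± 0.22) and NYE1 rose, and ORE1 (−1.43 ± 0.15), SEN1, NAP and SAG101 fell.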

How the data were processed

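Whole seedlings were sequenced as paired reads from TruSeq libraries, per the labels' protocols, and groups were read from the sample titles. The deposited tables hold 1 value per locus and library, read as TPM because the values are not whole and every library sums to between 998197.5 and 998680.8. The authors' aligner, counting tool and strand setting are not given in the labels, and the submitters' processing notes name TAIR10. TPM keeps no depth, so no counting interval can be given.

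Genes that reached 1 TPM in 3 or more of the 12 libraries were fitted on log2(TPM + 1) with limma 3.58.1 (R 4.3.3), using a mean-variance trend, 4 group means and Benjamini-Hochberg adjustment over all 19922 genes. A log2 change on this scale understates changes near 1 TPM. ± is the SE beside a change and the SD over 3 libraries beside a TPM mean. The fit was tested on simulated data. P-values set a change against the spread between separately raised replicates, pooled over the 4 groups and moderated by limma over all genes.

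Members and gene lists were chosen with earlier results of these data known. Values in every library are given for the 3 highest and 3 lowest called members of each comparison and for WRKY6, WRKY18, WRKY33, WRKY40, WRKY46, WRKY53, WRKY60, WRKY63, WRKY70 and WRKY75, and of each list the highest and lowest called genes are named. Others named were chosen after their values were seen. All 70 loci matched the TAIR10.1 annotation by identifier, which gave positions and upstream sequence (RefSeq). Exons were compared with BLAST+ 2.17.0. Python 3.11.15, pandas 2.3.3 and matplotlib 3.10.9 were used. No 2 libraries were identical.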

Additional observations from a re-analysis of the deposited data

How the results depend on the processing

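Alternatives were TMM-style scaling, no filter on low values, a pseudocount of 0.1, no trend, only the groups compared, the replicate block and each of the 12 libraries left out, 18 in all. Of 3744 results of single members under them, 3507 kept their direction and side of the threshold, 167 no longer passed, 70 newly passed and 0 of the called results changed sign. Scaling moved the median gene from −0.15, 0.19 and −0.24 to −0.01, 0 and −0.01 for UV-B, uvr8 under UV-B and ABA, and gave 8 members higher with UV-B, 5 lower in uvr8 and 15 lower with ABA. For the mutant under UV-B against the wild type in white light, 4 members were higher with no filter, when more genes were tested.

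Held under every alternative were 3 of 3 members higher and 11 of 16 lower with UV-B, 22 of 29 higher and 1 of 2 lower in uvr8 under UV-B, 9 of 13 higher and 15 of 23 lower with ABA, and 4 of 8 higher (WRKY33, WRKY40, WRKY63 and WRKY75) in uvr8 against white light. WRKY63 and WRKY9 are also among the 22 held in uvr8 under UV-B. Both reached the level tested through uvr8 alone, so nothing is read from their place in these counts.

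With 1 library left out, counts were 3 to 4 higher and 11 to 18 lower with UV-B, 23 to 31 higher and 1 to 2 lower in uvr8 under UV-B, and 9 to 14 higher and 20 to 25 lower with ABA. In uvr8 against white light they were 4 to 11 higher and 0 lower. The lowest, 4, came without uvr8 replicate 1 or 2, and 5 came without uvr8 replicate 3 or without white-light replicate 1 or 2. The lower member lost in uvr8, WRKY30, went without uvr8 replicate 2. The cause was not tested.

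Whether the replicate numbers pair the libraries was not settled. Of 18 same-numbered pairs, 7 correlated above 0.1 (−0.132 to 0.256), and differently numbered pairs spanned −0.294 to 0.311. A smaller share of the differently numbered pairs than of the same-numbered ones exceeded 0.1. With the replicate block, 4 members were higher and 15 lower with UV-B, 30 and 2 in uvr8 under UV-B, 11 and 23 with ABA, and 6 and 0 in uvr8 against white light. TPM gives no depth, so low members rest on an unknown number of reads.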
